A study of Arabidopsis thaliana with 6 samples.

Results

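The first 3 hours of cold were examined by setting the 2 Affymetrix ATH1 arrays of Arabidopsis thaliana seedlings held at 4 °C for 3 h against the 2 arrays of seedlings at 22 °C, labelled 0 h. These are 4 of the 6 arrays of the series, chosen by their time labels alone. Each side held 1 array of lcbk1-2, a mutant labelled as a knock-out, and 1 array of wild type Columbia-0, the background of the comparison. The seedlings were 2 weeks old, were taken whole and had grown on half-strength Murashige and Skoog medium with sucrose under long days. The labels name no time of day, no pooling and no promoter-driven transgene. The other 2 arrays, 1 of each genotype after 24 h at 4 °C, entered the fit, where they bear on the spread and on which features were bright enough to be tested, and give levels set side by side. An array of 22 °C seedlings sampled 3 h later was not analysed here, so cold and time of day cannot be told apart in any change below. LCBK1, the gene the mutant is named for, was on 0 probe sets annotated to a single gene, so its level was not checked.

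Plants respond to chilling within minutes with a rise of calcium in the cytosol, which calcium-binding proteins pass on. Transcription factors of the CBF, zinc-finger and other families then rise and in turn switch on COR genes, whose hydrophilic products protect membranes and proteins during freezing. In parallel, growth slows, the clock is disturbed, and sugars and flavonoids accumulate. Sphingoid base kinases such as LCBK1 make phosphorylated sphingoid bases, lipid signals that have been linked to the cold response.

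Signals are deposited Affymetrix MAS5 values, linear and scaled to a common mean, and changes are differences of log2 signal, 3 h minus 0 h, with signals under 66 (the floor) raised to 66. The 6 arrays had medians between 144 and 171, and between 63.6% and 66.1% of their probe sets reached the floor. The hybridisation controls of the wild type array of 0 h were 2.18 times the median array, against 0.870 to 1.11 times on the others, and their part in the results was not tested. The 3' to 5' signal ratio of actin was 4.00 on the lcbk1-2 array of 3 h, against 2.87 to 3.34 on the others. For GAPDH and ubiquitin the ratio was 1.08 to 1.31 and 0.991 to 1.27 over all arrays. The part of these ratios in the results was not tested. None of 4 tissue markers passed in limma, and 0 had an unadjusted p under 0.05. RCA, which encodes the activase of Rubisco and marks leaves, changed by -0.24. The root gene PYK10, a beta-glucosidase, changed by -0.23, and the root hair expansins EXPA7 and EXPA18 by 0.07 and 0.03. The 4 measured reference genes changed by -0.17 to -0.09. In whole seedlings, fewer cells of a type and less RNA per cell cannot be told apart.

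Both genotypes changed in much the same way in the first 3 hours. Of 15653 features tested, 1456 passed limma's test (adjusted p threshold 0.05) as higher at 3 h, which is 9.30% of all, and 1240 as lower, which is 7.92%, or 17.2% (2696) in either direction. A feature is called here when it passed and its signal differed 2-fold or more, with 1 sign, in both lcbk1-2 and wild type. By that rule 503 features were called higher (3.21% of those tested) and 273 lower (1.74%). The test borrows its spread from the 24 h arrays: fitted on the 4 arrays of 0 h and 3 h alone, limma passed 0 features, with 4854 at an unadjusted p under 0.05. Leaving out a single array in turn passed 0 to 534 features, with 0 in the absence of either 24 h array, and this limit holds for every adjusted p below. The spread holds array error together with any difference between the genotypes in their response, and there is no spread between replicates. The fold criterion needs no test, and 504 features were at least 2-fold higher and 273 at least 2-fold lower in both genotypes.

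**Figure D1:**
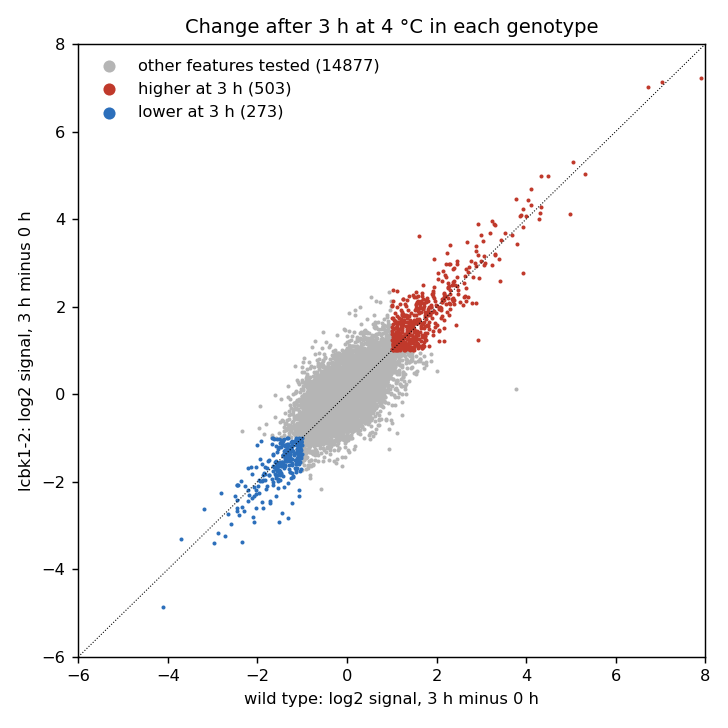
Change in log2 signal, 3 h minus 0 h, of each of the 15653 features in wild type (horizontal axis) and in lcbk1-2 (vertical axis), with the dotted line marking equal change. The 503 features called higher are red and the 273 called lower are blue. No feature changed at least 2-fold in opposite directions.

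Taken by genotype, 813 features were at least 2-fold higher in lcbk1-2 (5.19%) and 690 in wild type (4.41%). At least 2-fold lower were 499 in lcbk1-2 (3.19%) and 451 in wild type (2.88%). Agreement was scored as reaching 2-fold in the other genotype, a bar that larger changes clear more easily. By direction alone, 97.5% (630 of 646) of features 2-fold to 4-fold higher in lcbk1-2 were also higher in wild type. So were all 121 that were 4-fold to 8-fold higher. The median ratio of the wild type log2 change to that in lcbk1-2 was 0.79 and 0.88 in these groups. For rises of the same sizes chosen in wild type, the median ratio of the lcbk1-2 change to the wild type change was 0.94 and 1.00. The ratio thus depends on the genotype used to choose. Of features 2-fold to 4-fold higher in lcbk1-2, 53.1% (343 of 646) were also at least 2-fold higher in wild type, against 95.0% (115 of 121) of those 4-fold to 8-fold higher. Of those at least 8-fold higher in lcbk1-2, all 46 reached 2-fold in wild type. The share was 49.7% (222 of 447) for falls of 2-fold to 4-fold in lcbk1-2 and 45 of 46 for falls of 4-fold to 8-fold. Chosen in wild type, the share that reached 2-fold in lcbk1-2 was 67.0% (373 of 557) for rises of 2-fold to 4-fold, 98.9% (93 of 94) for 4-fold to 8-fold and 97.4% (38 of 39) above that, and 57.0% (235 of 412) for falls of 2-fold to 4-fold. Across features the changes of the genotypes correlated with a Pearson r of 0.80 (n = 15653); the 2 changes share no array, and features are not independent replicates. The opposite pattern, 2-fold up in a genotype and 2-fold down in the other, occurred in 0 features, and 31 met it at 1.5-fold.

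Large changes were mostly rises. At least 4-fold in both genotypes were 113 features called higher and 32 called lower, at least 8-fold were 33 and 2, and at least 16-fold were 14 and 1. The median signal of features called higher was 861 at 3 h and 243 at 0 h, while features called lower had 295 at 3 h and 842 at 0 h. These levels follow in part from the calling rule and the floor, and are not a separate result. The median of all tested features at 0 h was 345. At 0 h, 39 of the rises lay at or below the floor in both genotypes, and at 3 h 15 of the falls did, so their fold changes are lower bounds. Folds are likewise limited by the floor where a single array lies under 66, as for AT1G33055, IAA29, CYP71B22, CYP78A9, CPUORF47, SMZ, TINY2, rps14, COR27, SWEET13, PUB24 and GRX480 below. The criterion cuts a continuous range: HOS3-1, above the floor on all 4 arrays, lay just inside with changes of 1.16 in lcbk1-2 and 1.02 in wild type. SWEET2, a vacuolar sugar transporter, lay just outside with 0.99 in lcbk1-2 and 1.16 in wild type.

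Of the called features, 228 rises and 122 falls were annotated to a single gene, and 265 rises and 149 falls had no annotated gene here. The features without a gene included the largest rise of all, 7.57, and the largest fall, -4.49. Their medians, 1.56 for rises and -1.41 for falls, lay beside 1.54 and -1.43 for the annotated genes. Of 197 loci that the gene lists give by number, 43 were on a probe set annotated to a single gene, so many known cold genes lie outside what is named below.

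Among regulators, STZ gave a large rise that was equal in the genotypes. STZ is a C2H2 zinc-finger repressor of transcription induced by cold, salt and drought. Its signal was 5741 in lcbk1-2 and 5029.7 in wild type at 3 h, against 339 and 317 at 0 h. Both 3 h arrays lay far above both 0 h arrays, a 16.4-fold change (log2 change 4.03, SE 0.14, limma adjusted p = 0.000158). WRKY53, the other measured member of the first-wave factors, lay near the floor on the 0 h and 3 h arrays, between 48.8 and 69.4.

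HYH, a bZIP factor that works with HY5 in light-driven seedling development, had signals of 777 in lcbk1-2 and 702 in wild type at 3 h, against 104 and 107 at 0 h. That is a 7.02-fold rise in which the genotypes lay close (limma adjusted p = 0.000327). SMZ, an AP2-type repressor of flowering, had 372 in lcbk1-2 and 339.8 in wild type at 3 h, against 84.2 and 54.1 at 0 h, and its log2 change was 2.25 (limma adjusted p = 0.000713). TINY2, an AP2 factor related to the DREB proteins that bind COR promoters, reached 162 in lcbk1-2 and 137 in wild type, against 56.4 and 66.8, close to the floor. With the floor at the 50th percentile TINY2 no longer passed. bHLH34 rose by 1.32 on the log2 scale (limma adjusted p = 0.00879), and bHLH121, a regulator of iron homeostasis, was lower by -0.94 (limma adjusted p = 0.0261).

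The list of bZIP genes, which does not hold HYH, had 10 measured members with a median change of 0.11. Of these 3 passed, all lower, beside 7.92% of all features, and 1 was called, beside 1.74%. BZIP61 had 427 in lcbk1-2 and 598 in wild type at 3 h, against 1895 and 1742 at 0 h, a log2 change of -1.85. The other 2, bZIP52 and BZIP34, changed by -1.23 and -0.66. BZIP60, a factor of the response to unfolded proteins in the endoplasmic reticulum, changed by 0.49 without passing (limma adjusted p = 0.0615). NAC014 passed at -0.76, and no longer passed under quantile normalization. None of 5 WRKY genes passed in limma, with 1 at an unadjusted p under 0.05. EIN3, a main ethylene transcription factor that also restrains CBF genes, fell to 1356 in lcbk1-2 and 1472 in wild type, against 2369 and 2308 at 0 h (log2 change -0.73, limma adjusted p = 0.0172). SIZ1, the SUMO ligase that stabilises the CBF activator ICE1, changed by -0.38 and did not pass.

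Ubiquitin ligases included the largest rise of any gene with a symbol. PUB19, a U-box ligase of the drought and abscisic acid response, had 4817 in lcbk1-2 and 3075 in wild type at 3 h, against 224 and 187 at 0 h. The groups were far apart, an 18.8-fold rise (log2 change 4.24, SE 0.17, limma adjusted p = 0.000196). PUB23, a U-box ligase that damps drought and immune signalling, had 627 in lcbk1-2 and 646 in wild type, against 163 and 156, and its log2 change was 2.00. PUB22, its close relative, changed less: 292 in lcbk1-2 and 344 in wild type, against 144 and 240.5 (log2 change 0.77, limma adjusted p = 0.0272). PUB24, of the same subgroup, was lower at 65.7 in lcbk1-2 and 66.5 in wild type, against 130 and 107, but its 3 h values lie at the floor.

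The ATL genes, which encode membrane-bound RING ligases, went both ways. ATL5 rose 3.00-fold, with 479.9 in lcbk1-2 and 366 in wild type at 3 h, against 156 and 125 at 0 h. ATL8 had 142 in lcbk1-2 and 253 in wild type, against 348 and 483, a log2 change of -1.11. Of the 12 U-box and ATL genes measured, 4 passed as higher and 3 as lower, beside 9.30% and 7.92% of all features. Of the rises 3 were called, beside 3.21% of all features, and the median change was -0.19, beside -0.03 for all tested features. AFR, an F-box protein of phytochrome A light signalling, was called with 2279 in lcbk1-2 and 1797 in wild type, against 548 and 368 (log2 change 2.17, limma adjusted p = 0.00112). BRH1, a RING gene that brassinosteroids repress, fell 3.13-fold to 726 in lcbk1-2 and 634 in wild type, against 2096 and 2147.

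**Figure D2:**
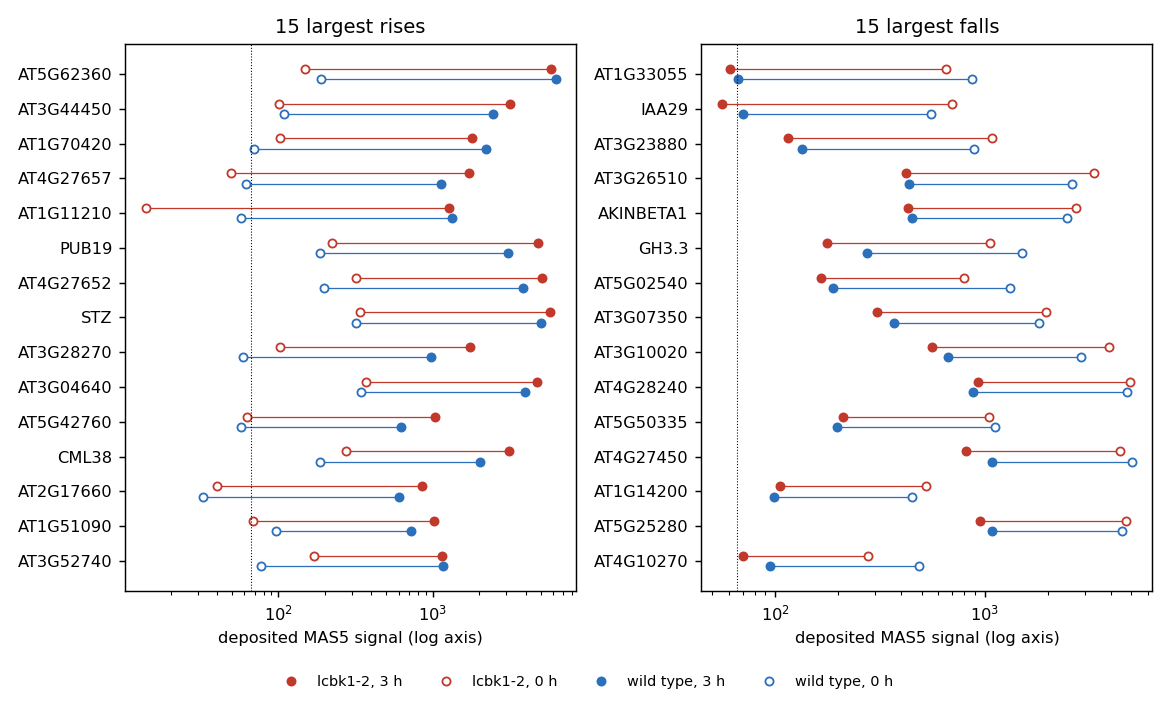
Deposited MAS5 signal (log axis) of the 15 annotated genes with the largest called rises (left panel) and the 15 with the largest called falls (right panel). Filled points are 3 h and open points 0 h, red lcbk1-2 and blue wild type, and the dotted line is the floor of 66. The genes were chosen by their change on these same arrays, and for each of them both 3 h points lie on the same side of both 0 h points.

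Calcium sensing was represented by calmodulin-like proteins, small binders of calcium. CML38 had 3114 in lcbk1-2 and 2032 in wild type at 3 h, against 272 and 187 at 0 h, an 11.2-fold rise (log2 change 3.48, SE 0.17, limma adjusted p = 0.000314). The remaining 6 measured members did not share it. CML43 and CML42 passed as lower, with changes of -0.63 and -0.60, and neither passed with the floor at the 20th percentile. CML37 and CML23 were 0.98 higher in lcbk1-2 but 0.11 and 0.12 in wild type, and neither passed. Of 5 calcium channels and pumps none passed in limma, with changes between 0.00 and 0.63 and 1 at an unadjusted p under 0.05. Of 10 IQD scaffolds, which bind calmodulin, 1 passed. SRC2, a C2-domain protein that responds to cold, was already bright and had 11271 in lcbk1-2 and 11230.2 in wild type, against 4575 and 5352, a 2.27-fold rise.

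The measured protective COR genes were higher at 3 h. Of 18 genes on the list 6 were measured, and all 6 passed as higher, beside 9.30% of all features. Of these 3 were called, beside 3.21% of all, and their median log2 change was 1.23, beside -0.03 for all tested features. AT4G33980, counted as passing and as called, lay under the floor at 0 h in both genotypes. It was bright enough to be tested only through its 3 h and 24 h arrays, so it could pass only as higher. The list was chosen with earlier results of these data known. COR15B, whose product protects chloroplast membranes, had 1678 in lcbk1-2 and 1095 in wild type at 3 h, against 338 and 345 at 0 h (log2 change 1.99, SE 0.19, limma adjusted p = 0.00203). COR15A, its neighbour and close copy, had 2537 in lcbk1-2 and 1267 in wild type, against 891 and 494, a 2.70-fold rise (limma adjusted p = 0.0206). Both genes were called, so a 2-fold gap between 3 h and 0 h in each genotype is part of the rule. Whether their probes read each other's transcript was not tested.

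The dehydrins were bright at 0 h and rose less. COR47 had 11186 in lcbk1-2 and 10816 in wild type, against 7393 and 6332, a log2 change of 0.68. LTI30 had 7094 in lcbk1-2 and 7954 in wild type, against 4684 and 2932, with changes of 0.60 in lcbk1-2 and 1.44 in wild type. COR27, which links cold to the clock, had 107 in lcbk1-2 and 158 in wild type, against 28.9 and 79.3, and AT4G33980, placed in the same list, lay under the floor at 0 h and reached 153 in lcbk1-2 and 294 in wild type. With the floor at the 20th percentile 2 of the 6 passed. Their levels in the 24 h arrays were higher still: COR15B had 20207 in lcbk1-2 and 18196 in wild type, COR15A 33884 and 37229, and COR27 3547 and 3119.

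GI, the evening clock gene of flowering time and freezing tolerance, had 652 in lcbk1-2 and 783 in wild type at 3 h, against 307 and 363 at 0 h (2.14-fold, limma adjusted p = 0.00678). Its level in the 24 h arrays was 5782 in lcbk1-2 and 5504 in wild type. AT5G52660, the measured morning gene, changed by 0.23 and did not pass. CCL, a transcript known to be unstable and under clock control, fell to 1192 in lcbk1-2 and 1316 in wild type, against 3852 and 2965, a 2.70-fold change. With no 22 °C arrays at 3 h, the daily course of these genes and the cold cannot be told apart.

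UGT78D2, which adds glucose to flavonoids, had 3609 in lcbk1-2 and 2634 in wild type at 3 h, against 567 and 374 at 0 h, a 6.70-fold rise (log2 change 2.74, SE 0.20, limma adjusted p = 0.00111). UGT78D1, which adds rhamnose to flavonols, had 1810.3 in lcbk1-2 and 1189 in wild type, against 368 and 266 (log2 change 2.23). Outside the lists, CHIL, a chalcone isomerase-like protein that promotes flavonoid synthesis, had 1455 in lcbk1-2 and 1039 in wild type, against 339 and 239 (4.32-fold). All 3 genes were called, a rule that already asks for a 2-fold change in both genotypes on these arrays.

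The anthocyanin branch was dimmer and less certain. DFR, the dihydroflavonol reductase, had 201 in lcbk1-2 and 110 in wild type, against 132 and 66.5, and did not pass (limma adjusted p = 0.0842). AT4G14090 lay under the floor at 0 h and had 218 in lcbk1-2 and 117 in wild type at 3 h. It passed (limma adjusted p = 0.0262), without 2-fold in wild type, and no longer passed with the floor at the 50th percentile or without the genotype term. UF3GT did not pass, with a change of 0.37. Of 18 genes on the flavonoid list 4 were measured, and 2 passed, both higher, beside 9.30% of all features. Called was 1, beside 3.21% of all features. AT4G14090 and UF3GT, under the floor at 0 h in both genotypes, were tested only through arrays of 3 h and 24 h. Neither could pass as lower.

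Among UGT glycosyltransferases, 34 were measured. Of these 9 passed as higher and 3 as lower, beside 9.30% and 7.92% of all features. Called were 4 rises and 1 fall, beside 3.21% and 1.74% of all features, and the median was -0.01. UGT84A3, which makes glucose esters of hydroxycinnamates such as sinapate, had 581 in lcbk1-2 and 562 in wild type, against 168 and 130.1 (3.86-fold). UGT76E11 rose 3.57-fold. UGT85A4 fell to 103 in lcbk1-2 and 112 in wild type, against 358 and 321. Among 16 genes on the cytochrome P450 list, 4 passed as higher and 1 as lower, beside 9.30% and 7.92% of all features. On that list CYP71 and CYP59 are by their symbols cyclophilins. CYP78A9, a gene of fruit and seed growth, rose 2.45-fold. CYP71B22 fell at least 3.86-fold to 81.5 in lcbk1-2 and 63.2 in wild type, against 264 and 304.

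The measured genes that mark sugar starvation were lower at 3 h. They are normally held low by sugar and rise in prolonged darkness. Of 20 genes on the list 6 were measured, and all 6 passed as lower, beside 7.92% of all features. Of these 4 were called, beside 1.74% of all, and the median was -1.83, beside -0.03 for all tested features. The list was chosen with earlier results of these data known. AKINBETA1, a regulatory subunit of the SnRK1 energy-sensing kinase, had 433 in lcbk1-2 and 452 in wild type at 3 h, against 2733 and 2476 at 0 h (5.88-fold, log2 change -2.56, SE 0.14). AT4G27450 had 815 in lcbk1-2 and 1082 in wild type, against 4406 and 5047. AT2G20670 had 2473 in lcbk1-2 and 2362 in wild type, against 7084 and 7080.0. As called genes, these differ at least 2-fold in both genotypes by the rule. Under the floor at the 20th percentile 3 of the 6 passed.

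The other measured members of that list break down leucine. MCCA, a subunit of methylcrotonyl-CoA carboxylase, had 329 in lcbk1-2 and 327 in wild type, against 1438 and 1390.3, a 4.31-fold fall. MCCB, its partner subunit, fell to 408 in lcbk1-2 and 457 in wild type, against 845 and 757. IVD, isovaleryl-CoA dehydrogenase, stood at 414 in lcbk1-2 and 584 in wild type, against 1036 and 969.9. The enzyme subunits thus passed in the same direction, with only MCCA at 2-fold in both genotypes. SIS, a gene induced by salt, fell 3.12-fold.

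Autophagy genes, whose products wrap cell contents for breakdown, were lower where they passed. Of 10 measured, 4 passed, all lower, beside 7.92% of all features, and 1 was called, beside 1.74%. Their median was -0.43, beside -0.03 for all tested features. ATG8E, a ubiquitin-like protein of the autophagosome membrane, had 666 in lcbk1-2 and 684 in wild type, against 1970.5 and 1937, a log2 change of -1.53. ATG8F, ATG8C and APG8A, of the same family, changed by -0.89, -0.61 and -0.53. With the floor at the 20th percentile 1 of the 10 passed.

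Genes of sugar synthesis and transport were higher where they passed. ATSPS4F, a sucrose phosphate synthase, had 2519.5 in lcbk1-2 and 1751 in wild type, against 1052 and 746, and was called (2.37-fold, limma adjusted p = 0.00285). PWD, a dikinase of starch breakdown, changed by 0.62, and no longer passed with the lower floor or with no floor. Of 13 sugar transporters 3 passed, all higher, beside 9.30% of all features, and none was called. SWEET2 changed by 1.07, SWEET13, an exporter of sucrose, by 0.89 and SWEET1, a glucose transporter, by 0.80. GTR1, a carrier of glucosinolates, rose 3.40-fold to 1324 in lcbk1-2 and 1138 in wild type, against 339 and 383.

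**Figure D3:**
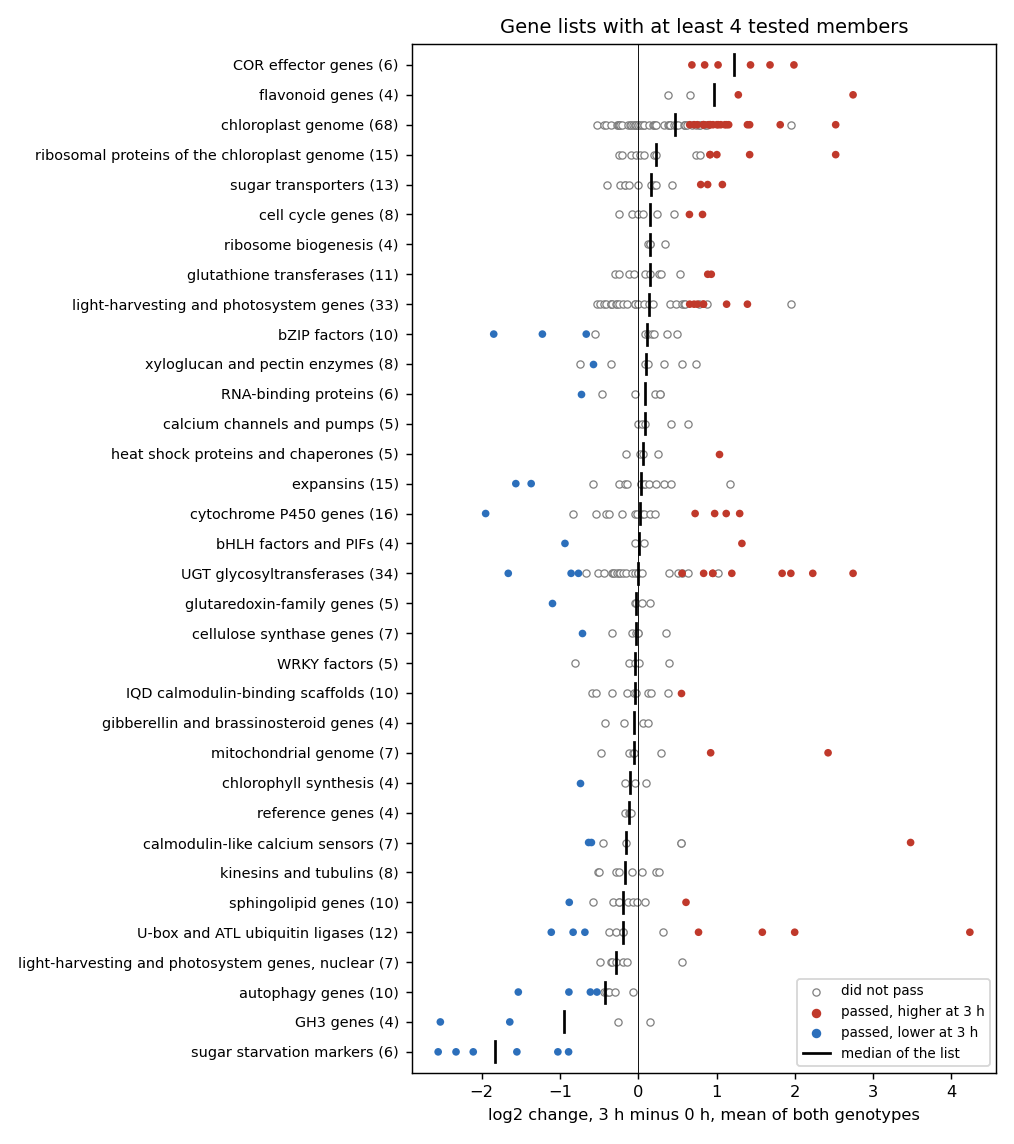
Change in log2 signal, 3 h minus 0 h and averaged over both genotypes, of each member of the gene lists with at least 4 tested members (number in brackets). Red points passed as higher, blue points passed as lower, open points did not pass, and the black bar is the list's median. The 6 COR genes lie to the right of 0 and the 6 sugar starvation markers to the left, while most families straddle it. These lists were chosen with earlier results of these data known, so their place is not independent support.

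Auxin genes gave some of the largest falls. IAA29, an auxin-induced repressor of auxin signalling that is tied to stem growth, had 55.7 in lcbk1-2 and 70.4 in wild type at 3 h, against 700.1 and 554 at 0 h (log2 change -3.19, SE 0.16, limma adjusted p = 0.000314). Since its 3 h level in lcbk1-2 lay under the floor, the 9.14-fold fall is limited by the floor there. GH3.3, an enzyme that ties auxin to amino acids, had 176 in lcbk1-2 and 275 in wild type, against 1066 and 1512, a 5.77-fold fall. WES1, another GH3 enzyme, had 931 in lcbk1-2 and 1082 in wild type, against 3029 and 3236. GH3.17 and GH3.9 changed by -0.25 and 0.15 and did not pass, and neither did IAA30 and IAA18 (-0.48 and -0.07).

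EXPA8, an expansin that loosens walls, had 1007 in lcbk1-2 and 921 in wild type, against 2984 and 2719 (2.96-fold). At 24 h it stood at 54.7 in lcbk1-2 and 75.0 in wild type. EXPA16 passed at -1.37 with unequal changes, -1.92 in lcbk1-2 and -0.82 in wild type, and the median of all 15 expansins was 0.03, with no other member passing. The medians of the xyloglucan and pectin enzymes and of the cellulose synthase genes were 0.10 and -0.03. ARL, which promotes cell expansion in organs, fell 2.47-fold to 899.8 in lcbk1-2 and 920.4 in wild type, against 1944 and 2589, and no longer passed with the floor at the 20th percentile. SIM, an inhibitor of cyclin-dependent kinases that starts endoreduplication, fell 2.66-fold to 383 in lcbk1-2 and 407 in wild type, against 1010.2 and 1093. XTH16, a xyloglucan enzyme, and CSLC04, a xyloglucan glucan synthase, passed as lower by -0.58 and -0.71, and neither passed with the lower floor. TBL26, of a family that acetylates wall polysaccharides, rose to 731 in lcbk1-2 and 353 in wild type, against 93.3 and 72.1.

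The measured cytokinin response regulators of type A, which damp cytokinin signalling, were higher at 3 h. Of 6 genes on the list 2 were bright enough to be tested. ARR15 had 282 in lcbk1-2 and 261 in wild type, against 67.2 and 84.7, a 3.60-fold rise (limma adjusted p = 0.00158). RR16 had 130.1 in lcbk1-2 and 174 in wild type, against 66.7 and 81.7 (log2 change 1.03). Both passed as higher, beside 9.30% of all features, and 1 was called, beside 3.21%. With the floor at the 20th percentile neither passed. None of 4 gibberellin and brassinosteroid genes passed in limma, with 1 at an unadjusted p under 0.05.

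Transcripts of the chloroplast's own genome were higher where they passed. Of 68 plastid genes measured, 20 passed, all higher, beside 9.30% of all features. Only 3 were called, a share near the 3.21% of all features. Their median was 0.47 (0.49 in lcbk1-2 and 0.25 in wild type), beside -0.03 for all tested features. rbcL, the large subunit of Rubisco, had 9533 in lcbk1-2 and 8526 in wild type, against 2854 and 2306, a 3.51-fold rise (limma adjusted p = 0.00118). rps14, a plastid ribosomal protein, had 569 in lcbk1-2 and 255 in wild type, against 66.7 and 39.5, and ndhJ, of the plastid NDH complex, rose 2.23-fold. psbA, the D1 protein of photosystem II, passed narrowly with 11166 in lcbk1-2 and 7358 in wild type, against 7079 and 3669.6 (limma adjusted p = 0.0454). With the floor at the 20th percentile 6 of the 68 passed, and 25 with it at the 50th. All 7 genes that passed on the light-harvesting and photosystem list belong to this genome. None of its 7 nuclear members passed in limma, with changes of -0.48 to 0.56 and 3 at an unadjusted p under 0.05. PORB, a nuclear gene of chlorophyll synthesis, was lower by -0.74.

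Of 7 measured genes of the mitochondrial genome, cox1 and nad4 passed as higher. cox1, a subunit of cytochrome oxidase, had 1382 in lcbk1-2 and 1414 in wild type, against 295 and 229.7, a 5.37-fold rise (limma adjusted p = 0.00111). nad4, of complex I, had 796 in lcbk1-2 and 809.9 in wild type, against 505 and 354. The other 5 lay between -0.48 and 0.29 and were dim.

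Sphingolipid genes form the pathway of the mutated kinase. Of 10 measured, 1 passed as higher and 1 as lower, a share near the 17.2% of all features that passed, none was called, and the median was -0.19. TSC10A, a reductase of sphingoid base synthesis, fell by 0.88 in lcbk1-2 and by 0.88 in wild type, to 461 and 512, against 850.1 and 944 at 0 h (limma adjusted p = 0.00971). LCB2, a subunit of serine palmitoyltransferase, changed by -0.58 without passing (limma adjusted p = 0.0646). AT2G38010, another member of the list, passed at 0.61 and no longer passed under median scaling. DPL1, the lyase that breaks down phosphorylated sphingoid bases, had 485 in lcbk1-2 and 628 in wild type, against 596 and 560.1, and did not pass.

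Smaller families added single genes. None of 8 kinesins and tubulins passed in limma, with 2 at an unadjusted p under 0.05, and none of 4 ribosome biogenesis genes or 3 peroxidases, with 0 at that p. Histone genes HTB1 and HTB2 rose by 0.82 and 0.65 among 8 cell cycle genes. Hsp70-2 rose by 1.03 among 5 chaperones, and GSTU28 and GSTU27 rose by 0.93 and 0.89 among 11 glutathione transferases. GRX480, a glutaredoxin of salicylate signalling, was lower with 66.4 in lcbk1-2 and 51.8 in wild type, against 188 and 108. Called genes with a symbol that lie on no list, such as HYH, SMZ, CHIL, ARL and SIM above and the genes that follow, were chosen after their values were seen. BGLU40, a beta-glucosidase, rose 4.26-fold to 1201 in lcbk1-2 and 964 in wild type, against 252 and 254. ATPMEPCRB, a pectin methylesterase, rose 3.15-fold while ATPMEPCRD fell 2.38-fold. RBL rose 2.33-fold, CPUORF47 rose at least 2.36-fold, and SCPL34 fell 2.27-fold, and PRA1.G2 changed by -1.07 on the log2 scale. P1R1 fell 2.42-fold, and P1R3, at the floor at 3 h, fell at least 3.57-fold.

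Most of the largest changes among annotated genes belonged to genes given by locus number only, for which no role is stated. AT5G62360 gave the largest annotated rise, with 5872 in lcbk1-2 and 6257 in wild type at 3 h, against 149 and 189.8 at 0 h (36.1-fold, limma adjusted p = 9.77e-05). AT3G44450 had 3163 in lcbk1-2 and 2466 in wild type, against 101 and 109, and AT1G70420 had 1785 in lcbk1-2 and 2207 in wild type, against 103 and 69.8. AT4G27652 and AT4G27657, which lie close together on chromosome 4, rose 17.8-fold and at least 21.0-fold. AT1G33055 gave the largest annotated fall, with 61.1 in lcbk1-2 and 66.6 in wild type, against 657 and 871 (log2 change -3.51), a fall limited by the floor in lcbk1-2. AT3G23880 had 115 in lcbk1-2 and 135 in wild type, against 1081 and 892. The 25 largest annotated rises ended at 2.86 (AT2G15020) and the 25 largest falls at -1.86 (AT3G52070).

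Levels after 24 h differed in kind between genes that had moved at 3 h. The 24 h changes share the 0 h arrays with those at 3 h, so levels only are given. STZ stood at 339, 5741 and 1795 in lcbk1-2 at 0, 3 and 24 h, and at 317, 5029.7 and 1366 in wild type, highest at 3 h. CML38 was at 484 in lcbk1-2 and 230.1 in wild type after 24 h, near its 0 h level in wild type. PUB19 kept 3423 in lcbk1-2 and 2047 in wild type at 24 h, HYH 842 and 942, and UGT78D2 7163 and 7904. ARR15 was back at the floor with 64.5 in lcbk1-2 and 5.17 in wild type. Among falls, AKINBETA1 was lower still at 137 in lcbk1-2 and 122 in wild type, BZIP61 at 41.2 and 75.8, and GH3.3 stood at 339.9 and 299.

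**Figure D4:**
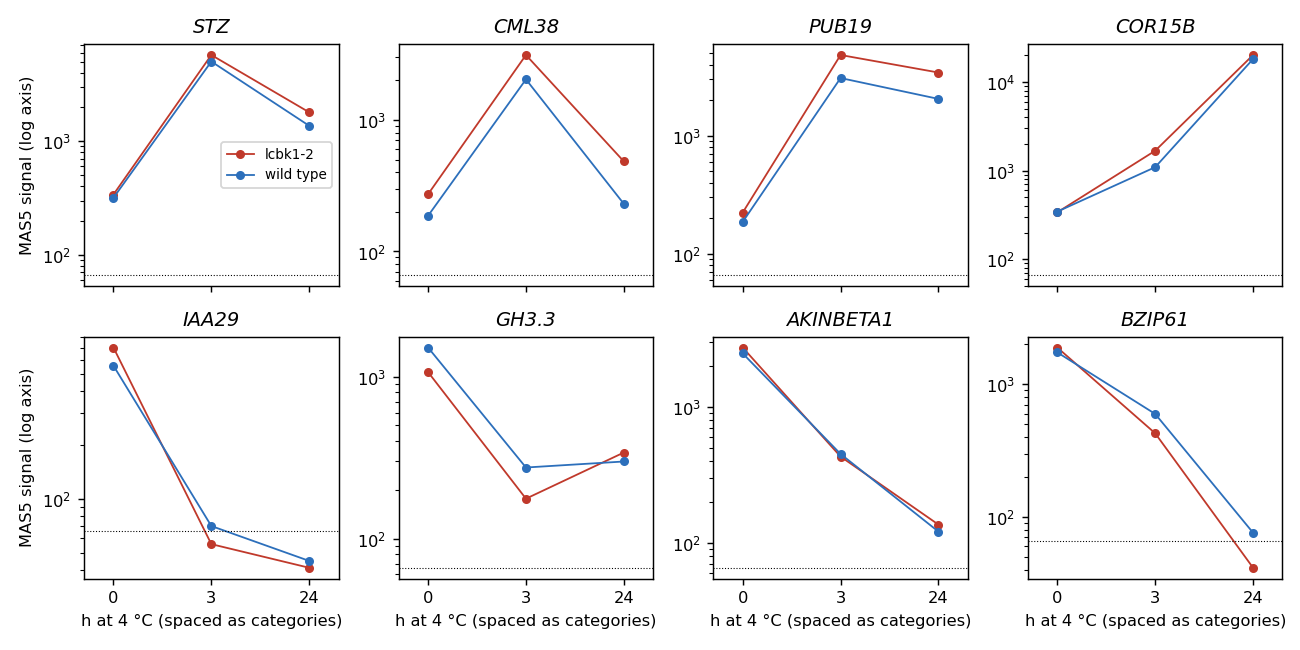
Deposited MAS5 signal (log axis) at 0, 3 and 24 h of cold, spaced as categories, in lcbk1-2 (red) and wild type (blue), 1 array a point, with the floor of 66 dotted. STZ and CML38 are highest at 3 h, COR15B is highest at 24 h, and AKINBETA1 and BZIP61 are lower at 24 h than at 3 h.

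Few bright annotated genes changed unequally in the genotypes, and with 1 array a point these gaps have no test. The median gap between the changes was 0.22 for all tested features. It was 0.23 for features called higher and 0.20 for those called lower, where the calling rule itself limits the gap. Of 8471 tested genes annotated to a single gene, 4862 had a signal of at least 264 (4 times the floor) at 0 h or 3 h in each genotype. Among these, 39 (0.802%) had changes that differed at least 2-fold. The widest was petL, a plastid subunit of the cytochrome b6f complex, with 1364 in lcbk1-2 and 908 in wild type at 3 h, against 1259 and 66.3 at 0 h. That gap rests on the wild type array of 0 h alone. AT1G48100 was higher in both, by 3.62 in lcbk1-2 and 1.60 in wild type. AT4G34660 changed by -0.90 in lcbk1-2 and 1.11 in wild type, AT4G10910 by -2.16 and -0.57, and AT4G33380 by 1.46 and -0.05.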

How the data were processed

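RNA from whole seedlings was hybridised to 6 ATH1 arrays, 1 per genotype and time, per the labels. The authors deposited a MAS5 signal intensity per probe set, per the submitters' processing notes, whose version is not given in the sources used here. The values were linear with a 2% trimmed mean of 500.05 to 500.06 on every array. From these, 64 control probe sets were set aside, 13513 of 22746 others were annotated to 1 gene, and for a gene with several the brightest was kept. Gene names came from the platform annotation and RefSeq (TAIR10.1).

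Intensities under 66 were set to 66 before log2. Features above it on at least 2 of 6 arrays were tested with limma 3.58.1 (R 4.3.3), genotype plus time, two-sided, Benjamini-Hochberg threshold 0.05, with 2 residual degrees of freedom (prior 4.19, prior SD 0.158). On simulated data for 3 h against 0 h over 15653 features, 44% of 100 features with a log2 change of 1 and 95% of 100 with 2 were recovered, with 10 false calls. The number of arrays limits precision. The p-values rest on array error together with any difference between the genotypes in their response, and on no spread between replicates.

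Named were the 25 largest called rises and falls, up to 4 called members of each list, all members of lists with up to 8 measured, and the 5 widest genotype gaps. Of 74 lists 52 had a tested member. Members and lists were chosen with earlier results of these data known. Promoter sequences were not analysed here. Alternatives covered scaling, floor, filter, genotype term, probe set choice and each array left out.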

Additional observations from a re-analysis of the deposited data

How the results depend on the processing

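The 2696 features that passed (1456 higher, 1240 lower) became 1018 (655 and 363) with the floor at the 20th percentile. There rises made up 64.3% of those passing, beside 54.0% in the reported fit. With no filter on dim probe sets 120 passed (69 and 51). In that fit limma's prior had 0.380 degrees of freedom and an SD of 0.00475, beside 4.19 and 0.158 in the reported fit. The cause of these drops was not tested. With only the 4 arrays of 0 h and 3 h the counts were 0, 0 and 0 in limma (4854 at an unadjusted p under 0.05). Leaving out 1 array gave 0 to 534 in all, 0 to 357 higher and 0 to 177 lower: 24 without wild type 0 h, 534 without wild type 3 h, 3 without lcbk1-2 0 h, 267 without lcbk1-2 3 h and 0 without either 24 h array, each with fewer degrees of freedom. The 504 rises and 273 falls in both genotypes were 1193 and 885 at 1.5-fold and 188 and 70 at 3-fold. In the wild type arrays, whatever lcbk1-2 did, 1141 features changed at least 2-fold, and 1875 with the floor at the 20th percentile. Of the 776 called features, 776 passed under quantile normalization and 776 under median scaling, 769 without the genotype term, 758 without a floor, 706 with the floor at the 50th percentile, 677 at the 20th and 62 with no filter. Of the genes printed in the report that passed, those that did not with the floor at the 20th percentile were APG8A, ARL, ARR15, AT1G48100, AT2G20670, AT2G38010, AT4G10910, ATG8C, ATG8F, BZIP34, bHLH121, bZIP52, CML42, CML43, COR15A, COR27, COR47, CPUORF47, CSLC04, CYP71B22, EIN3, EXPA16, GSTU27, HTB1, HTB2, Hsp70-2, IVD, LTI30, MCCB, nad4, NAC014, PORB, PRA1.G2, psbA, PUB22, PUB24, PWD, RR16, SWEET1, SWEET13, UGT85A4 and XTH16. With it at the 50th percentile AT4G14090, AT4G33980, BZIP34, CML43, COR27, CPUORF47, CYP78A9, EXPA16, GRX480, PRA1.G2, PUB24, RR16, SWEET13 and TINY2 did not pass or were not tested. Without a floor APG8A, ARR15, AT2G38010, AT4G10910, BZIP34, CML42, COR27, EXPA16, NAC014, psbA, PWD and XTH16 did not pass. None of the 123 named genes that passed took the opposite sign in any of these settings. A change of 0.0, as for COR27 with the floor at the 50th percentile, was not counted as opposite. For called genes, the rule of 2-fold in both genotypes leaves little room for a change of sign. The reported fit pairs 3 h and 0 h within genotype; without the genotype term 2452 features passed, and AT2G38010, AT4G14090, ATL8, BZIP34, CML43, GRX480, PUB22, psbA and SWEET13 did not. Comparing motifs over promoter lengths was not run. Dim genes, near the floor of 66, have the least certain changes.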
